A study of Mus musculus with 3 samples.

Results

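NF-kB transcription factors and a group of genes they are known to switch on were compared between mouse prostate cancer cells carrying MXRA7 and cells carrying the vector alone. The 10 genes, chosen by name, were the subunit genes Rela, Relb, Nfkb1 and Nfkb2, the inhibitor genes Nfkbia and Nfkbie, and the target genes Tnfaip3, Birc3, Icam1 and Vcam1. They were read through 15 noncontrol probes that bear these gene names, out of 39429 distinct noncontrol probes for 30199 gene names on the array. Of the 15 probes, 14, for 9 genes, had signal well above background in 1 or both channels on every array and were tested among 21791 probes. The single probe of Icam1 had none. For Rela, Nfkb1, Birc3 and Vcam1, 1 probe each was higher in RM1-MXRA7, by 1.16-fold for Nfkb1 to 1.31-fold for Rela once a trend over the array had been removed. No member passed the test as lower both before and after that removal. Of all tested probes, 9.51% passed as higher and 10.2% as lower both times.

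RM1 is a cell line of mouse prostate cancer. RM1-MXRA7 is the line transfected with MXRA7, a gene named for matrix remodelling, and RM1-VE is the line transfected with a vehicle vector. Both lines were grown in DMEM with 10% FBS and 400 µg/mL of the selection drug G418, and total RNA was taken in exponential growth on day 2. On each of 3 arrays, numbered 1 to 3, the RNA of RM1-MXRA7 was labelled with Cy3 and that of RM1-VE with Cy5, and every array gave 1 log2 ratio of RM1-MXRA7 over RM1-VE per probe (n = 3). It is not stated whether replicates came from separate cultures or transfections, nor whether either line was 1 clone or a pool, so p-values measure only the spread between these samples. No dyes were swapped, so that dye bias and line cannot be told apart for any probe.

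NF-kB subunits form dimers that inhibitors of the IkB family, such as those encoded by Nfkbia and Nfkbie, hold in the cytoplasm. Signals from receptors of the TNF, interleukin and Toll-like families activate IkB kinases, the inhibitor is degraded, and the dimers enter the nucleus and bind kB sites. Several targets are themselves brakes on the pathway: Nfkbia encodes an inhibitor, and Tnfaip3 a ubiquitin-editing enzyme that ends signalling. Because activation works through protein degradation and movement into the nucleus, mRNA levels of the subunits are a different measurement from NF-kB activity.

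Probes of the same gene gave different values in several cases, so the sequences of 4 of the probes concerned are shown first. The array files give their mm9 coordinates, and which exon or untranslated region they fall in was not analysed here. The first sequence is the Nfkb1 probe with the higher of that gene's paired ratios (chr3:135254550-135254609), the next pair are the Birc3 probes (chr9:7854409-7854468 and chr9:7856162-7856221), and the last is the Vcam1 probe that did not pass (chr3:115828953-115829012). No letters are marked, since no part of a 60-base probe is singled out.
Nfkb1 A_55_P1968743: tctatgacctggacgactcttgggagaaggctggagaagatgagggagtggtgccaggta
Birc3 A_55_P1980287: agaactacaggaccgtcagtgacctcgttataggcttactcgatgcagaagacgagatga
Birc3 A_52_P434055: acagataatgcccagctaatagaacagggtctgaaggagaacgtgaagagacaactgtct
Vcam1 A_52_P520495: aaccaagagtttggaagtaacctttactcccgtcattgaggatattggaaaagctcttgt

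The Nfkb1 probes start 6929 bases apart, the Birc3 probes 1753 and the Vcam1 probes 15737, and within each of these pairs no base is shared. The GC content of the 15 probes ran from 21.7% to 58.3%, with a median of 45%, against a median of 41.7% over all noncontrol probes.

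On all 3 arrays the log2 ratios ran along the rows of spots. Between 21787 and 24181 probes were well above background per channel and array, and Pearson's r between the ratios of 2 arrays was 0.846, 0.804 and 0.778 across probes, which are not independent replicates. A smooth surface over row and column took 34.5%, 33.7% and 25.5% of the variance of the ratios on arrays 1, 2 and 3. The fit also held log2 intensity and its products with the row and column terms, so these shares are not of position alone. Each member is therefore given before and after removal of that surface, and is said to have risen or fallen only where limma called it in the same direction both ways at an adjusted p of 0.05. The transfected gene does not check the labels. Its brighter probe had a log2 ratio of 0.31 ± 0.14 (SD, n = 3) before surface removal and -0.019 ± 0.045 (SD, n = 3) after it, and its dimmer probe lay at 0.10 and 0.08. The labels do not say which species' or which part of MXRA7 was transfected, and every direction rests on the dyes they state.

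**Figure D1:**
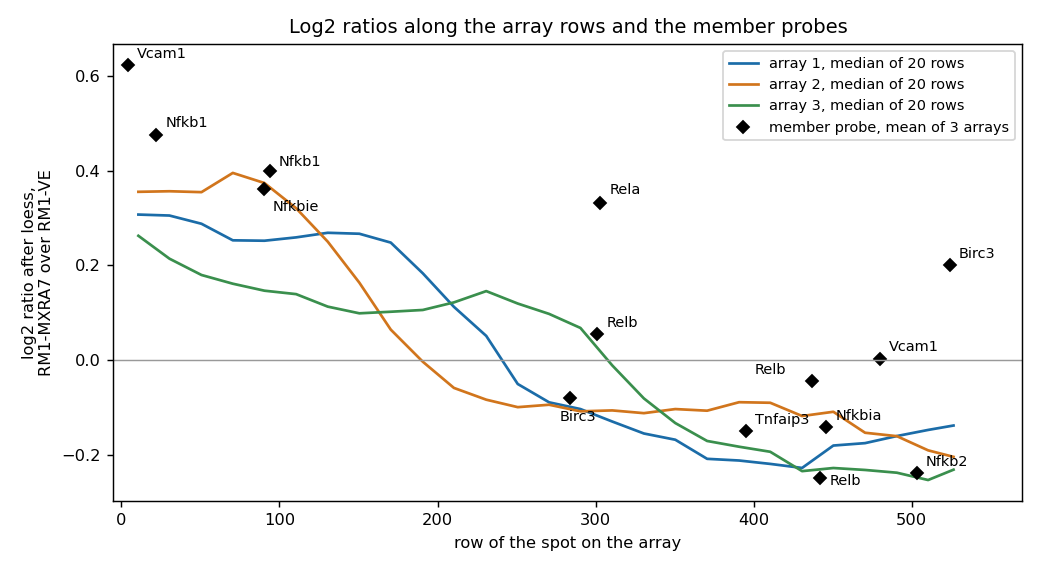
Log2 ratios of RM1-MXRA7 over RM1-VE after loess (vertical axis) against the row of the spot on the array (horizontal axis). Lines are medians of kept probes in windows of 20 rows, 1 line per array, and diamonds are the member probes, each the mean of 3 arrays. The medians ran from between 0.26 and 0.36 in the first rows to between -0.23 and -0.14 in the last.

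With the surface in place, 8 of the 14 tested member probes passed, 6 higher and 2 lower in RM1-MXRA7, where 47.3% of all tested probes passed (24.2% higher and 23.1% lower). With the surface removed, 4 passed and all 4 were higher, where 29.6% of all tested probes passed (15% higher and 14.6% lower). Both fits together called 4 probes higher, 1 each for Rela, Nfkb1, Birc3 and Vcam1, and 0 lower. Over all tested probes the same rule called 19.7%, with 9.51% higher and 10.2% lower. At an unadjusted p of 0.05 limma gave 6 higher and 0 lower in both fits, against 13.4% and 13.8% of all tested probes. Agilent's processed signals alone called 3 of the 14, all higher, against 23.5% of all tested probes (11.5% higher and 12% lower). With these signals required as well, the Rela, Nfkb1 and Birc3 probes, 3 of the 14, were called higher and 0 lower, against 7.07% and 7.64% of all probes.

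**Figure D2:**
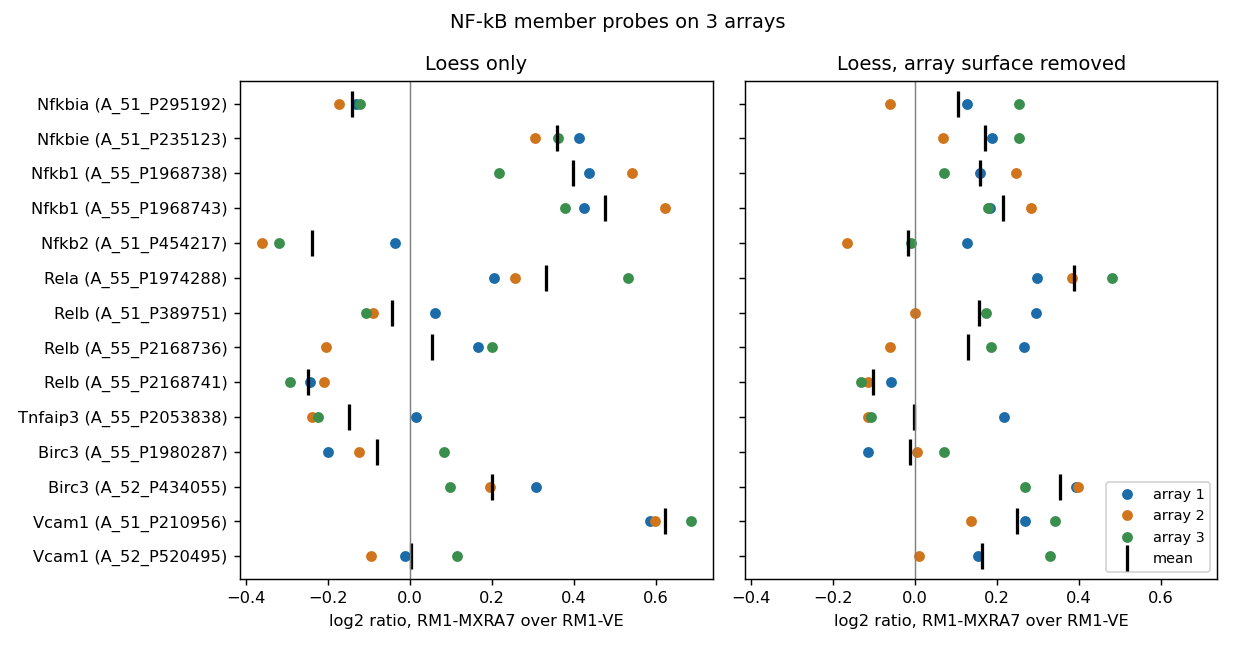
Log2 ratios of RM1-MXRA7 over RM1-VE (horizontal axes) of the 14 tested member probes, with 1 point per array and a bar at the mean of 3 arrays. The left panel shows values after loess alone and the right panel with the array surface removed, where all 14 means lay between -0.10 and 0.39.

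Among the subunit genes, Rela, which encodes the main transactivating subunit, rose in RM1-MXRA7. Its 1 probe (A_55_P1974288, chr19:5648070-5648129) had log2 signals of 14.78, 14.87 and 14.93 in RM1-MXRA7 on arrays 1, 2 and 3, against 14.57, 14.62 and 14.40 in RM1-VE. The lowest RM1-MXRA7 signal lay above the highest RM1-VE signal. These signals, like those of the members below, were taken before surface removal. The share of all probes without such overlap was not counted. The mean log2 ratio of 0.33 ± 0.18 (SD, n = 3), 1.26-fold, passed (limma adjusted p = 0.00358), as did 0.39 ± 0.09 (SD, n = 3; limma adjusted p = 0.00217) with the surface removed, with a 95% interval of 0.25 to 0.52. Agilent's processed signals gave 0.31 (limma adjusted p = 0.0268). Median centring without loess moved the median of all tested probes to -0.27, and the ratio of Rela was then -0.27 (limma adjusted p = 0.0239), or -0.00018 relative to that median. Rela thus lay at the median of all probes under that scaling, and above 0 under each of the other alternatives, some of which cannot change the ratio. In total RNA, more cells carrying a transcript and more of it per cell cannot be told apart.

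Nfkb1, which encodes a precursor processed to a subunit without a transactivation domain, was read by 2 probes. Probe A_55_P1968743 had log2 signals of 8.72, 9.0 and 8.68 in RM1-MXRA7 against 8.30, 8.37 and 8.30 in RM1-VE. These signals did not overlap before surface removal. Its log2 ratio was 0.48 ± 0.13 (SD, n = 3; limma adjusted p = 0.000155). It was smaller with the surface removed, at 0.22 ± 0.06 (SD, n = 3; limma adjusted p = 0.0218) and a 95% interval of 0.09 to 0.34, and still passed. Without replicate 2 it did not pass with the surface removed (0.18, limma adjusted p = 0.182), nor did it with a surface of degree 2 (0.18, limma adjusted p = 0.0678) or with the median of neighbouring spots removed (0.14, limma adjusted p = 0.0776). The other Nfkb1 probe (A_55_P1968738, chr3:135247621-135247680) had ratios of 0.44, 0.54 and 0.22 on the 3 arrays and 0.16, 0.25 and 0.07 with the surface removed. All 6 values were above 0, and the probe passed before removal (0.40 ± 0.17, SD, n = 3, limma adjusted p = 0.000874) but not after it (0.16 ± 0.09, SD, n = 3, limma adjusted p = 0.0728). Both probes lie in the first 94 rows of the array, where the fitted surface was at 0.26 and 0.24.

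Nfkb2, which encodes the precursor of the non-canonical pathway, had log2 ratios of -0.04, -0.36 and -0.32 on arrays 1, 2 and 3 (chr19:46386146-46386285). Arrays 2 and 3 were low and array 1 was near 0. The mean of -0.24 ± 0.18 (SD, n = 3) passed before surface removal (limma adjusted p = 0.0245), and with the surface removed it was -0.015 ± 0.15 (SD, n = 3; limma adjusted p = 0.888), with a 95% interval of -0.17 to 0.14.

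Relb, the usual partner of the processed Nfkb2 product, was read by 3 probes, and none was called in both fits. Of these, A_51_P389751 (chr7:20191722-20191781) and A_55_P2168736 (chr7:20191773-20191832), start 51 bases apart and share 9 bases. With the surface removed they had mean ratios of 0.16 ± 0.15 and 0.13 ± 0.17 (SD, n = 3), with array 2 the lowest for both, at 0.001 and -0.06. The remaining probe, A_55_P2168741 (chr7:20203058-20203117), carries an Ensembl transcript accession and starts 11285 and 11336 bases away from them. Its ratios of -0.24, -0.21 and -0.29 lay below 0 on every array, and the mean of -0.25 ± 0.04 (SD, n = 3; limma adjusted p = 0.0121) passed before surface removal. It did not pass afterwards, at -0.10 ± 0.04 (SD, n = 3; limma adjusted p = 0.192). With the surface removed this probe lay below each of the others on 3 of 3 arrays, by 0.26 ± 0.13 and 0.23 ± 0.15 (SD, n = 3) on the log2 scale, a description with no test.

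The inhibitor genes did not pass in both fits. Nfkbia, an inhibitor gene that NF-kB itself induces, had log2 signals of 13.65, 13.97 and 14.07 in RM1-MXRA7 and of 13.78, 14.14 and 14.19 in RM1-VE (chr12:56590945-56591440). The ranges of the lines overlapped, while on each array RM1-MXRA7 was the lower, with ratios of -0.13, -0.17 and -0.12. With the surface removed the ratios were 0.13, -0.06 and 0.25. The mean was -0.14 ± 0.03 (SD, n = 3; limma adjusted p = 0.126) before surface removal and 0.11 ± 0.16 (SD, n = 3; limma adjusted p = 0.274) after it, with a 95% interval of -0.05 to 0.26. The fitted surface at its spot, in row 446, lay at -0.25.

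Nfkbie, which encodes a further IkB protein, had log2 ratios of 0.41, 0.31 and 0.36 before surface removal (chr17:45700000-45700059). The mean of 0.36 ± 0.05 (SD, n = 3) passed (limma adjusted p = 0.00104). With the surface removed the ratios were 0.19, 0.07 and 0.26, still above 0 on every array. Their mean of 0.17 ± 0.09 (SD, n = 3) missed the threshold (limma adjusted p = 0.0605), with a 95% interval of 0.04 to 0.31 that is not adjusted for the number of probes.

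Of the target genes, Vcam1 and Birc3 each had 1 probe that rose and 1 that did not pass in both fits. Vcam1 encodes an adhesion molecule that binds integrins on leukocytes. Probe A_51_P210956 (chr3:115813216-115813275) had log2 signals of 12.13, 12.34 and 12.33 in RM1-MXRA7 against 11.54, 11.74 and 11.65 in RM1-VE. These signals, taken before surface removal, did not overlap between the lines. The mean log2 ratio of 0.62 ± 0.06 (SD, n = 3), or 1.54-fold, passed (limma adjusted p = 7.62e-06) and was the highest of the 14 member probes before surface removal. It was 0.25 ± 0.10 (SD, n = 3; limma adjusted p = 0.0167) with the surface removed, a 1.19-fold difference with a 95% interval of 0.11 to 0.39. The probe lies in row 4, where the fitted surface was at 0.37. It did not pass in Agilent's processed signals (0.24, limma adjusted p = 0.0538), with a surface of degree 2 (0.18, limma adjusted p = 0.113), or with the surface removed and without replicate 3 (0.20, limma adjusted p = 0.0537).

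The second Vcam1 probe, A_52_P520495, in row 480, had ratios of -0.01, -0.10 and 0.12, which straddle 0, and a mean of 0.003 ± 0.11 (SD, n = 3; limma adjusted p = 0.978). After removal of the surface its mean was 0.17 ± 0.16 (SD, n = 3; limma adjusted p = 0.105), with all 3 arrays above 0. The Vcam1 probes differed by 0.62 ± 0.06 (SD, n = 3) before surface removal and by 0.08 ± 0.06 (SD, n = 3) after it. Most of the difference between them thus went with the surface, and both means were above 0.

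**Figure D3:**
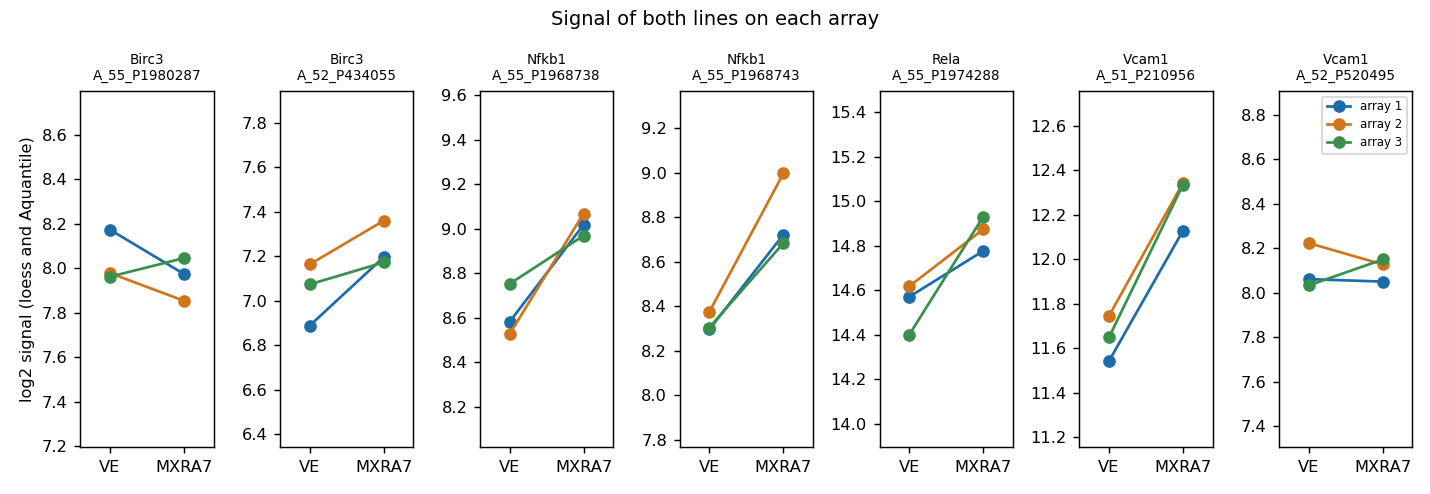
Log2 signal after loess and Aquantile normalization (vertical axes, each with its own range of equal width) of both lines on each of 3 arrays, for the probes of the 4 genes with a probe that rose. Lines join the RM1-VE and RM1-MXRA7 signals of 1 array, and the ratios are those before surface removal. The lines of the Rela probe, both Nfkb1 probes, Birc3 A_52_P434055 and Vcam1 A_51_P210956 rise on every array.

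Birc3 encodes an inhibitor of apoptosis that also attaches ubiquitin within TNF receptor complexes. Its probe A_52_P434055 carries the accession of a cDNA clone, to which RefSeq gave no symbol. The probe was dim: 13.2% of kept probes were dimmer, against 27.2% for the other Birc3 probe. It had log2 signals of 7.20, 7.36 and 7.17 in RM1-MXRA7 against 6.89, 7.16 and 7.07 in RM1-VE. All 3 RM1-MXRA7 signals were above those of RM1-VE, though the lowest of the former, 7.17, was barely above the highest of the latter, 7.16. The ratio was 0.20 ± 0.10 (SD, n = 3; limma adjusted p = 0.0409) and 0.35 ± 0.07 (SD, n = 3; limma adjusted p = 0.00278) with the surface removed, with a 95% interval of 0.22 to 0.48. Agilent's processed signals gave 0.55 (limma adjusted p = 0.00796). Before surface removal the call was lost without replicate 1 (0.15, limma adjusted p = 0.293) and without replicate 2 (0.20, limma adjusted p = 0.143). With median centring the ratio against 0 did not pass (0.13, limma adjusted p = 0.156), but relative to the shifted median of all probes it was 0.40, against 0.21 after loess. The other Birc3 probe, A_55_P1980287, had ratios of -0.20, -0.12 and 0.08, and a mean near 0 with the surface removed (-0.011 ± 0.09, SD, n = 3, limma adjusted p = 0.903). It lay below the first on 3 of 3 arrays in both fits, by 0.28 ± 0.25 (SD, n = 3) before and 0.37 ± 0.16 (SD, n = 3) after surface removal, a difference that was not tested.

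Tnfaip3 (A_55_P2053838, chr10:18720776-18720835) had log2 ratios of 0.01, -0.24 and -0.22 before surface removal and 0.22, -0.11 and -0.11 after it. Array 1 lay apart from arrays 2 and 3 both times. The means were -0.15 ± 0.14 (SD, n = 3; limma adjusted p = 0.131) and -0.00079 ± 0.19 (SD, n = 3; limma adjusted p = 0.995), with a 95% interval of -0.17 to 0.17 for the latter. Icam1, an adhesion molecule gene that NF-kB induces in many cell types, had log2 signals of 6.11, 6.16 and 6.07 in RM1-MXRA7 and 6.02, 6.03 and 6.0 in RM1-VE (chr9:20832290-20832349). None was well above background in either channel, so these values bear no fold and no test.

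Over the 14 tested probes the median log2 ratio was 0.16 with the surface removed, against 0.006 over all 21791 probes, and 0.03 against -0.011 before removal. In Agilent's processed signals the medians were 0.16 and 0.004. The median of the members was 0.19, 0.008 and 0.18 on arrays 1, 2 and 3 with the surface removed, so array 2 did not share it. With the surface removed 10 of 14 members lay above 0, and 8 of 14 did so on all 3 arrays, against 11221 and 6802 of all 21791 probes. Every one of the 14 had an absolute ratio under 0.5 with the surface removed, as did 95.9% of all tested probes. By role, the surface-removed medians were 0.16 for the 7 subunit probes, 0.14 for the 2 inhibitor probes and 0.17 for the 5 target probes. The count of rising members was 2 with a surface of degree 2 and 2 without replicate 2, in place of 4. Over all tested probes the count of rises was 2002 and 813 in these settings, in place of 2072. No set test was made of these members.

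Sequence before the transcription start was compared for the members with an entry in the RefSeq promoter table (GRCm38.p6), 7 of the 10. These were Birc3, Icam1, Tnfaip3, Nfkbia, Nfkbie, Rela and Nfkb2. The kB consensus, a motif of 10 bases with several variable positions, searched on both strands from 250 bases before to 50 bases after the start, matched in 4 of the 7, Tnfaip3, Nfkbia, Nfkbie and Nfkb2. It matched in 8.46% of 32851 promoters, and in 9.55% of 27025 genes when a gene counts once. None of the members with a consensus match was called in both fits, and the rising members with an entry, Rela and Birc3, had no match. The rising members Nfkb1 and Vcam1 had no entry, and a link between matches and calls was not tested. A match describes letters only. The windows of Nfkbia (minus strand, chr12:55492648-55492897) and of the first start of Nfkb2 (plus strand, chr19:46304487-46304736) are shown as examples. Matches are in capitals, and only the 250 bases before the start are given. Not shown are Tnfaip3, with a match at -12 to -3 from the start, Nfkbie and the later Nfkb2 starts, which also hold matches.
Nfkbia: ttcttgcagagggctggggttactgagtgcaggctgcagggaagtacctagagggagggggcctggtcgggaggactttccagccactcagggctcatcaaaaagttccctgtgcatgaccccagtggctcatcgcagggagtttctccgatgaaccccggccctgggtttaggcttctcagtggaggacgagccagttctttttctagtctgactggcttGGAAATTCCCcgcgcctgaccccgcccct
Nfkb2: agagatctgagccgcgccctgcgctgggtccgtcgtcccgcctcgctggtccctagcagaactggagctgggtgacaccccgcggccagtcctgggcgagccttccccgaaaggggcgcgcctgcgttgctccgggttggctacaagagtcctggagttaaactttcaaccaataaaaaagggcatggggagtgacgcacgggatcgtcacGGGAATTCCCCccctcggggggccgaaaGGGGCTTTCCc

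The Nfkbia match lies 29 to 20 bases before the start. In Nfkb2 overlapping matches on both strands span 39 to 29 bases before it, and another lies 11 to 2 bases before it. With the surface removed, log2 ratios were 0.11 for Nfkbia, -0.015 for Nfkb2, 0.17 for Nfkbie and -0.00079 for Tnfaip3. None of these 4 genes with a match passed after removal. Before it, Nfkbie passed as higher (0.36, limma adjusted p = 0.00104) and Nfkb2 as lower (-0.24, limma adjusted p = 0.0245).

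Around the members, 6 lists of pathway genes were read through 112 kept probes of 82 genes. Both fits called 16 of these probes higher and 11 lower, where 9.51% and 10.2% of all tested probes were, and their surface-removed median was 0.036. Among the other NF-kB and IkB genes, 1 of 7 probes rose and 1 fell. Bcl3, an IkB-like coactivator gene that binds homodimers of the Nfkb1 and Nfkb2 products, rose by 0.65 ± 0.07 (SD, n = 3; limma adjusted p = 5.09e-06), and by 0.30 ± 0.08 (SD, n = 3; limma adjusted p = 0.00649) with the surface removed. Nfkbib, which encodes another IkB protein, fell by 0.25 on the log2 scale and by 0.20 with the surface removed on 1 probe. That probe did not pass in Agilent's processed signals (-0.23, limma adjusted p = 0.0594). The other kept Nfkbib probes lay at -0.16 and 0.08 with the surface removed without passing.

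Of 38 probes for activating kinases and adaptors, 3 rose and 1 fell, against 9.51% and 10.2% of all tested probes. Tradd, the adaptor gene of TNF receptor signalling, had ratios of -0.60, -0.48 and -0.68, lower on every array. Its mean was -0.59 ± 0.10 (SD, n = 3; limma adjusted p = 1.76e-05), and it was -0.37 ± 0.03 (SD, n = 3; limma adjusted p = 0.00169) with the surface removed. Traf2, whose product is recruited by that adaptor, rose by 0.38 in both fits on 1 probe, and its second probe, at 0.29 ± 0.41 (SD, n = 3) after surface removal, did not pass. Irak1, a kinase gene of interleukin 1 and Toll-like receptor signalling, rose on 2 of 3 probes, by 0.31 and 0.41 with the surface removed, and its remaining probe lay at 0.19 (limma adjusted p = 0.0544).

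Of 17 probes for negative regulators, 2 were higher and 2 lower, near the 9.51% and 10.2% of all tested probes. Tnip1 and Tnip2, whose products bind the Tnfaip3 protein, each had a probe that fell, by 0.40 and 0.36 before and by 0.22 and 0.22 after surface removal. Their second probes lay at -0.16 and -0.11 after removal and did not pass. The deubiquitinase gene Otud7b rose by 0.31, and by 0.39 with the surface removed. Rnf11, a ubiquitin ligase gene of the Tnfaip3 complex, rose by 0.22 on 1 probe (0.20 with the surface removed). That probe did not pass in Agilent's processed signals (0.22, limma adjusted p = 0.0687). The other Rnf11 probe lay at 0.08 after removal.

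Upstream receptors and ligands differed in how far they could be measured. Of 13 receptor probes 3 rose and 0 fell in both fits, against 9.51% and 10.2% of all tested probes. At an unadjusted p of 0.05 limma gave 4 higher and 1 lower, against 13.4% and 13.8%. Tnfrsf12a, the receptor gene for the ligand TWEAK, rose by 0.41 ± 0.08 (SD, n = 3; limma adjusted p = 0.000434) and by 0.50 ± 0.13 (SD, n = 3; limma adjusted p = 0.000884) with the surface removed. The lymphotoxin beta receptor gene Ltbr rose by 0.21 and 0.31, and the Toll-like receptor gene Tlr2 by 0.27 and 0.29, before and after removal. The ratios of Tlr2 before removal were 0.02, 0.25 and 0.53 on arrays 1, 2 and 3. In Agilent's processed signals Tlr2 did not pass (0.30, limma adjusted p = 0.0743). Of 9 ligand genes, 2 had a kept probe. Ltb, the lymphotoxin beta gene, had ratios of -0.25, -0.73 and -0.35. It fell by 0.44 before and 0.29 after surface removal, the latter with a limma adjusted p of 0.0462. In Agilent's processed signals Ltb did not pass (-0.37, limma adjusted p = 0.109). The probes of Tnf, Lta, Il1a and Il1b were not well above background in either channel on any array.

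**Figure D4:**
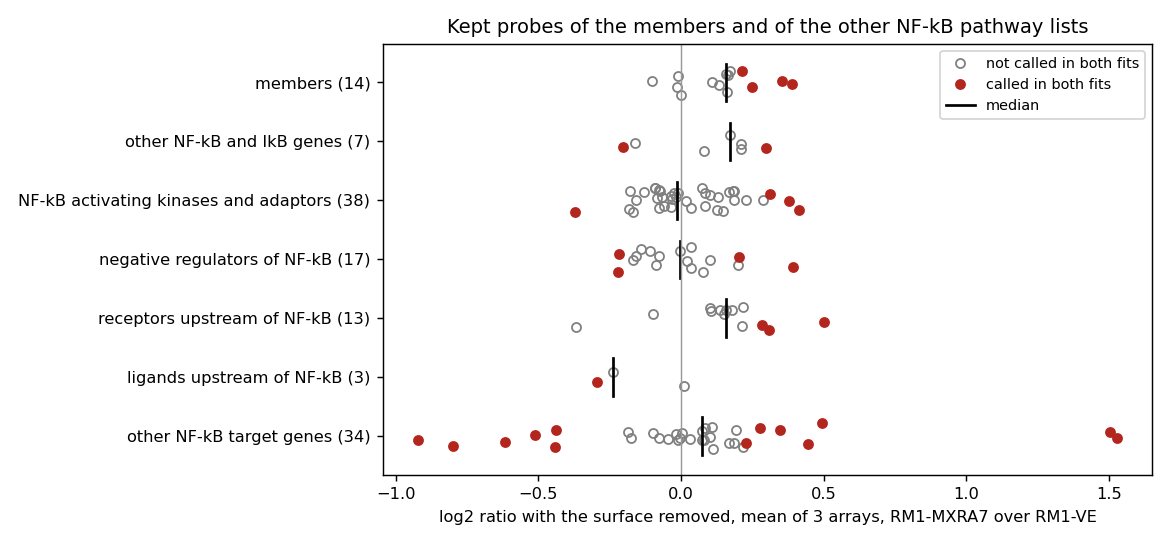
Log2 ratios of RM1-MXRA7 over RM1-VE with the array surface removed (horizontal axis, mean of 3 arrays) for kept probes of the members and of the 6 pathway lists, with the number of probes in parentheses. Filled points were called in the same direction by both fits, open points were not, and bars are medians; the members had a median of 0.16 and the points at 1.53 and 1.5 are the Tnfaip2 probes.

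The other target genes moved both ways, with 7 of 34 probes higher and 6 lower, against 9.51% and 10.2% of all tested probes. Tnfaip2, a TNF-induced gene, had ratios of 2.05, 1.60 and 1.54 on 1 probe and 1.39, 1.45 and 1.1 on the other. Both were above 1 on every array, with means of 1.73 ± 0.28 and 1.31 ± 0.18 (SD, n = 3; limma adjusted p = 2.6e-10 and 2.36e-09), and 1.53 and 1.5 with the surface removed. Ccl5, a chemokine gene, had ratios of -0.36, -1.0 and -1.08, with array 1 the least low, and fell by 0.81 before and 0.62 after surface removal. Selp, an adhesion molecule gene of platelets and endothelium, fell by 0.80 in both fits. Lcn2, which encodes the siderophore-binding protein lipocalin, fell by 0.74 before and by 0.92 after surface removal. The remaining probes called in both fits, named here to complete the count, were those of Csf1 (2 probes), Cflar, Ier3 and Myc, which rose, and those of Cxcl5, Gadd45b and Nos2, which fell.

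Markers of the labelled cell type and of other cells were read alongside. Krt8, Krt18, Krt14 and the mesenchymal marker Vim were well above background in both lines, while the epithelial markers Cdh1, Epcam and Krt5 and the prostate marker Pbsn were not in either. All 5 probes of the mesenchymal list were kept, 3 of them called higher after loess and 1, that of Fn1, in both fits. Of all tested probes, 24.2% were called higher and 23.1% lower after loess, and 9.51% and 10.2% in both fits. The mesenchymal medians were 0.34 before and 0.14 after surface removal. Summed linear signals of the mesenchymal probes, before surface removal, were 157583 to 165966 in RM1-MXRA7 and 136129 to 146219 in RM1-VE. Of the prostate epithelium list 4 of 12 probes were kept. After loess 1 was called higher and 2 lower, and 0 were called in both fits. Its medians were -0.19 before and -0.08 after surface removal. The sums over its 12 probes, 163687 to 198172 in RM1-MXRA7 and 149281 to 182807 in RM1-VE, overlapped. Of the endothelial list 3 of 5 probes were kept, with summed linear signals of 3058 to 3217 in RM1-MXRA7 and 3703 to 3870 in RM1-VE over all 5. Cdh5 fell (-0.87 before and -0.72 after surface removal), and Tek was not well above background. Of the macrophage list 5 of 8 probes were kept, with sums over all 8 of 5750 to 14310 in RM1-MXRA7 and 6701 to 16408 in RM1-VE. After loess 1 macrophage probe was called higher and 2 lower, with a median ratio of -0.19, and with the surface removed the median was -0.043. Cd14 was the 1 called in both fits and rose (0.34 and 0.18), and Emr1 was not well above background on any array in Cy3. Of the leukocyte list 3 of 5 probes were kept, and 0 were called in both fits. Its sums were 1192 to 1239 in RM1-MXRA7 against 1320 to 1439 in RM1-VE. They were taken before surface removal over all 5 probes, which include those not kept. Ptprc, the defining gene of that list, was not well above background. The part of these cell types in the values of Vcam1 and of the other members was not tested.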

How the data were processed

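Per the file headers, the authors deposited scanner output of Agilent Feature Extraction, version 10.7.1.1 per the submitters' processing notes, with each spot's mean and background intensity and a processed intensity, detrended and dye-normalized by the software. The authors' deposited value table holds linear ratios that equalled processed Cy3 over Cy5 within 1% for 100% of values, with column medians of 1.02, 1.03 and 0.972.

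In limma 3.58.1 under R 4.3.3, background was corrected by normexp (offset 50) and each array normalized by loess, control spots at weight 0. Spots with an outlier flag were dropped and ratios turned to RM1-MXRA7 over RM1-VE. Of 21803 probes with a channel well above background on every array, 21791 had a value on every array. The test against 0 used lmFit and eBayes, adjusted by Benjamini-Hochberg over all tested probes. The surface, of polynomials of degree 4 in row and column, alone and times log2 intensity, and of log2 intensity itself, was fitted to kept probes. Of the 15 member probes, 13 carry an accession that RefSeq gives the same symbol.

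The members and lists, and the rule that both fits must call a probe, were chosen with earlier results of these data known. Every member probe is named, with Mxra7 and, per pathway list, up to 4 genes called in both fits with the highest absolute ratio. The steps were tested on simulated data. All arrays lay on 1 slide and were scanned on 1 day, so no batch could be split. Their number, 3, limits the precision. Alternatives covered the background correction, normalization, surface, filter, variance prior, deposited ratios, array block, probes per gene and each array left out. Some cell type markers are not reported here.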

Additional observations from a re-analysis of the deposited data

How the results depend on the processing

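Across all tested probes, limma called 10312 before surface removal, 5121 with Agilent's processed signals, 5102 with the deposited ratios, 6451 with a surface of degree 4 removed and 5678 with degree 2. For the members the counts were 8, then 3, 3, 4 and 2, with 3 for the median of neighbouring spots removed (added after the data were seen) and 5 with 1 probe per gene. For the pathway lists they were 59, then 29, 29, 34 and 34. The lines are paired by array and number, which a ratio takes in: single channels with the replicate block gave the same counts, and with no replicate block 2700 probes, 3 members and 8 pathway probes were called. With 1 replicate left out, the counts ran from 6526 to 9315, 5 to 7 and 38 to 53, and with the surface also removed from 2346 to 6945 (5600 without replicate 3), 3 to 4 and 17 to 42. The fits with 1 replicate left out and the surface removed were also added after the data were seen. With the neighbouring spots, 4 settings were added in this way. Member probes called higher in both fits numbered 4 and fell to 2 with degree 2 in place of 4, and ran from 2 to 3 with 1 replicate left out. Counts of calls in both fits under alternatives were not planned either. Median centring in place of loess called 1278 probes higher and 12294 lower, against 5278 and 5034.

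Of 252 values of single member probes under alternatives, 31 had the other sign, 1 of them with a call. The filters, the variance prior and the single-channel fits leave a probe's ratio unchanged, so their values could not change sign. The deposited ratios repeat Agilent's processed signals. The count of 252 thus overstates the number of separate checks. With median centring Rela lay at -0.2689, Relb A_55_P2168736 at -0.2543 and Vcam1 A_52_P520495 at -0.1816, where the median of all tested probes was -0.27; relative to it they lay at -0.00018, 0.014 and 0.087, so for the last pair the sign was that of the main setting. Agilent's processed signals gave 0.035 for Nfkbia, 0.0012 for Nfkb2, 0.18 for Relb A_51_P389751 and 0.035 for Tnfaip3, as did the deposited ratios (0.03452, 0.001247, 0.18 and 0.03532). With a surface of degree 4, degree 2 or neighbouring spots removed, Nfkbia lay at 0.107, 0.121 and 0.065 and Relb A_51_P389751 at 0.157, 0.137 and 0.142, and Tnfaip3 at 0.016 with neighbouring spots. With replicates left out and the surface removed, Nfkbia ranged from 0.033 to 0.191 (0.096 between), Relb A_51_P389751 from 0.088 to 0.236 (0.149 between), and the signs turned for Nfkb2 (0.0599), Tnfaip3 (0.055 and 0.052) and Birc3 A_55_P1980287 (0.039). With the surface left in, they turned for Relb A_55_P2168736 (-0.0022 and -0.019) and Vcam1 A_52_P520495 (-0.054). The causes were not tested. Signals near background limit Icam1 to no value.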

Other observations

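Further pathway genes were near the limit of what these arrays measure, and are named here after their values were seen. Rel, a subunit gene expressed mostly in lymphoid cells, was not well above background in either channel on any array. Saa3, an acute-phase gene that NF-kB is known to induce, passed background on 2 arrays in Cy3 and on 1 in Cy5, and was therefore not tested. Its log2 ratios were 0.32, 0.72 and 0.52 on arrays 1, 2 and 3. Tnfsf11 and Il33, which encode cytokines, were each well above background in Cy5 on 2 arrays and in Cy3 on 0.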
